A study of Homo sapiens and Mus musculus with 7 samples.

Results

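Aminoacyl-tRNA synthetases attach each amino acid to its tRNA, and so supply every ribosome with charged tRNA. In human cells most amino acids have one enzyme for the cytosol and a second, encoded by another nuclear gene, for mitochondria. In the cytosol several synthetases sit in the multisynthetase complex on the scaffold proteins AIMP1, AIMP2 and EEF1E1. Many genes of cytosolic synthetases are known targets of ATF4, the transcription factor that cells make when amino acids run short or the endoplasmic reticulum is stressed.

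The members were chosen by symbol from a fixed list of 36 synthetase genes, and symbols ending in 2 were taken as mitochondrial. The table held 35 of them among 14920 genes, 20 cytosolic and 15 mitochondrial; MARS2 was not analysed here. GARS and KARS stand with the cytosolic genes by their symbols, although each is known to encode both the cytosolic and the mitochondrial enzyme. All 35 reached the level floor used below, 5 scaled TPM in the higher library, in every comparison. Scaled TPM here means reads per transcript length, set to a common depth between libraries and to a mean library sum of 1000000.

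RNA was sequenced from HEL, a human erythroleukaemia line, in 4 groups of 1 library each: KAP1 KD cells without hemin, KAP1 KD cells with hemin at 50 µM for 5 days, KAP1 WT cells without hemin, and KAP1 WT cells with the same hemin treatment. KAP1, the product of TRIM28, silences genes where zinc finger proteins bring it to DNA, and hemin pushes HEL cells towards red cell features. Columns headed Ctrl were matched to KAP1 WT, the other genotype among the HEL samples, and KAP1 WT cells are the control throughout. The sources used here do not give how the knockdown was made or whether the cells are 1 clone. With 1 library per group, a comparison of 2 libraries carries no p-value, its counting interval covers counting error only, and the spread between cultures is unknown. In bulk RNA, fewer cells of a type and less RNA per cell cannot be told apart.

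Library depth lay between 23529352 and 41222452 reads on the chosen transcripts. TRIM28, the targeted gene, had a log2 ratio of knockdown over control of -0.41 without hemin and -1.07 with hemin. Its row was deposited as whole numbers, unlike the synthetase rows, so it has no counting interval and is a weak check of the labels. The erythroid markers HBG1, HBG2, HBA1, HBA2, GATA1 and KLF1 were present, with HBG2 between 6982 and 32675 scaled TPM, and ALB, a liver gene, stayed under 1 in every library. Myeloid genes moved with the knockdown: the eosinophil granule gene PRG2 was at 6.82 and 10.6 scaled TPM in the knockdown libraries without and with hemin, against 1345 and 647 in the controls. The other myeloid marker present, CD68, was at 12.0 and 21.5 scaled TPM in the knockdown libraries, against 33.6 and 114 in the controls, and both fell in the additive fit described below; MPO was not analysed here. Among the erythroid markers given here HBA1 and HBA2 rose, and KLF1 had log2 ratios of knockdown over control of 0.07 without hemin and -0.69 with it. Of the 3 megakaryocytic markers, PF4 passed in the same fit although its ratios had opposite signs, -0.61 without hemin and 2.20 with it, ITGA2B had -0.85 and -0.03, and GP9 0.17 and -0.20. The part of these differences in the results on synthetases was not tested.

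The known ATF4 targets are described apart below, so the letters ATF4 is known to bind were searched in the promoters and are shown first. ATF4 binds, with partners of the C/EBP family, a composite element whose core is TGATGNAA. RefSeq promoter windows (build GRCh38.p14, 250 bases before and 50 bases after a start) were available for 16 cytosolic and 13 mitochondrial members and were searched for this core on both strands. It was found in 7 of the 16 cytosolic genes (43.8%) and 1 of the 13 mitochondrial genes (7.69%), beside 4.46% of all 27305 genes with a window. All 7 are on the list of known ATF4 targets, of which 10 had a window. That list rests in part on such elements, so the match is not independent of it.

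The stretches of 30 bases around the matches are given 5′ to 3′ along the gene's strand, with the core in capitals (TTNCATCA where it lies in reverse). The search itself fixed every letter of the core except N, so its likeness between genes is not a finding. The match in NARS is named only.
AARS, chr16:70289675-70289704, minus strand: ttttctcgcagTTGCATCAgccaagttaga
CARS, chr11:3057407-3057436, minus strand: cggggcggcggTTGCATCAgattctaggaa
GARS, chr7:30594834-30594863, plus strand: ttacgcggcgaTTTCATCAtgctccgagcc
IARS, chr9:92293692-92293721, minus strand: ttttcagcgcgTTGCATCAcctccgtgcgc
MARS, chr12:57488053-57488082, plus strand: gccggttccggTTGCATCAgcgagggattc
TARS, chr5:33440956-33440985, plus strand: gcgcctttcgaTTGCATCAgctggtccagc
YARS2, chr12:32756076-32756105, minus strand: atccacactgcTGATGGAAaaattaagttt
In CARS, IARS, MARS, NARS and TARS the core began within 15 bases of an annotated start, and in GARS 33 bases before the second of its listed starts. CARS and TARS, like GARS, had 2 promoter windows each, of which 1 held the match. In AARS it began 187 bases before the start and in YARS2 197 bases before it. Among the cytosolic genes with a window, EPRS, FARSA, FARSB, HARS, KARS, QARS, RARS, SARS and WARS had no match to these letters.

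Cytosolic synthetase transcripts were abundant in all 4 libraries. Their median level was 154 and 144 scaled TPM in the knockdown libraries without and with hemin, against 280.5 and 201 in the controls. The medians of the 15 mitochondrial genes were 34.6 and 28.2 in the knockdown libraries, against 23.7 and 21.9 in the controls. The cytosolic median lay above 92.6% and 92.8% of all genes in the knockdown libraries without and with hemin, and above 96.8% and 95.5% in the controls, and the mitochondrial median above 68.2% and 62.8% in the knockdown libraries and 58.9% and 56.6% in the controls. Scaled TPM is per transcript length, so levels of different genes can be set side by side. YARS, the tyrosine enzyme, had the highest mean level of all members, with 293 and 279 scaled TPM in the knockdown libraries without and with hemin, against 434 and 372 in the controls. RARS, the arginine enzyme, had the lowest mean among the cytosolic genes, with 62.5 and 61.3 scaled TPM in the knockdown libraries, against 49.1 and 46.9 in the controls. IARS2, for mitochondrial isoleucine, was the highest mitochondrial gene in every library, and FARS2, for mitochondrial phenylalanine, the lowest, at 5.36 and 6.05 scaled TPM in the knockdown libraries and 5.11 and 5.46 in the controls. The summed level of the cytosolic genes was 3252 and 2843 scaled TPM in the knockdown libraries without and with hemin, against 5120 and 4274 in the controls. The sum of the mitochondrial genes was 535 and 458 in the knockdown libraries, against 382 and 383 in the controls. On this scale the cytosolic sums were lower in the knockdown libraries than in their controls, and the mitochondrial sums higher.

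**Figure D1:**
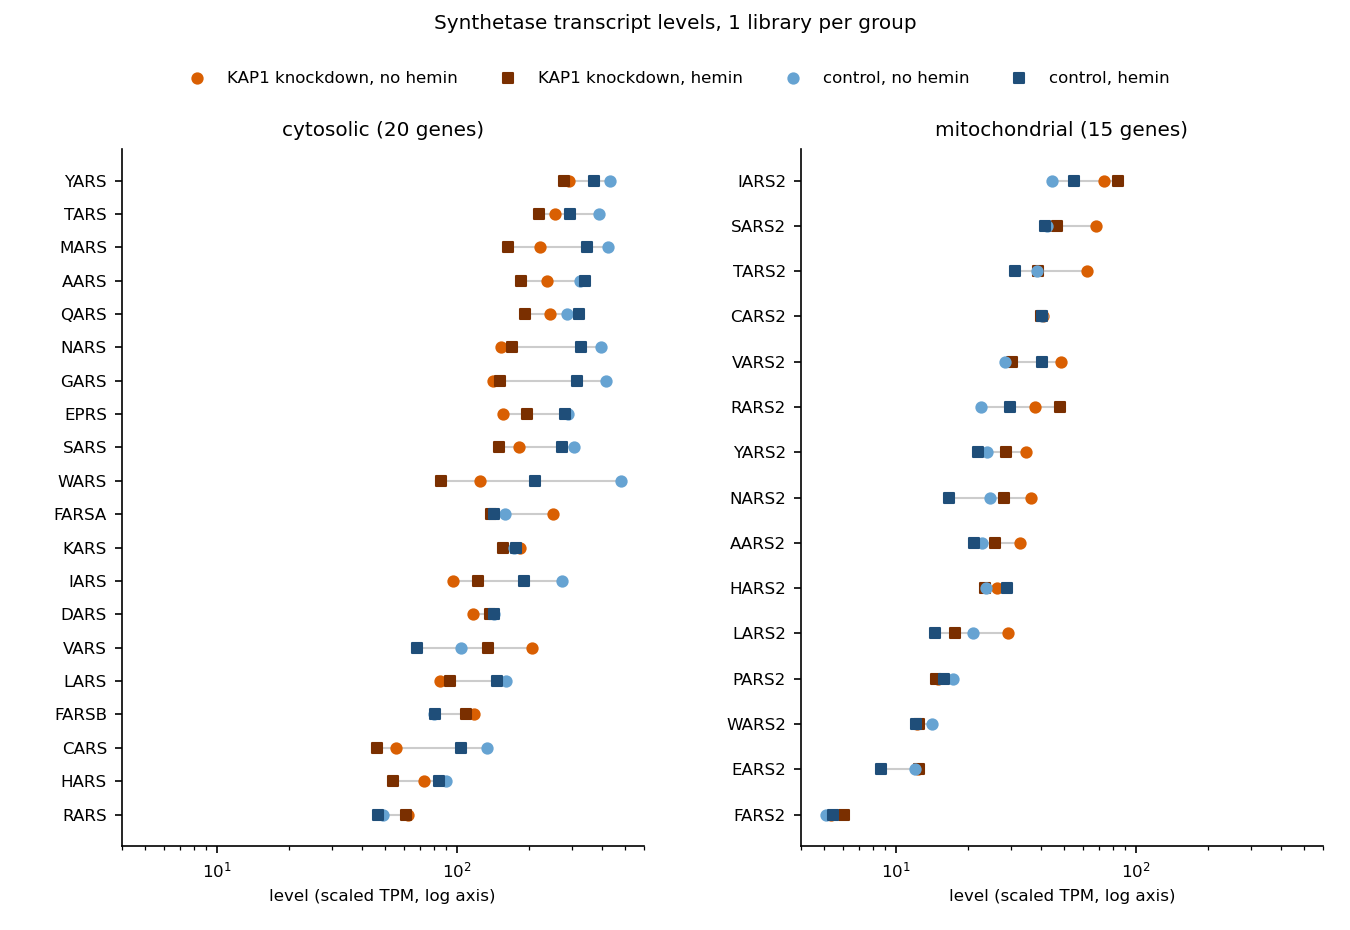
Level of each synthetase transcript in scaled TPM (log axis) in the 4 HEL libraries, 1 point per library, with the cytosolic genes on the left panel and the mitochondrial genes on the right, each ordered by mean level. YARS leads the cytosolic genes and IARS2 the mitochondrial genes, and WARS spans the widest range of the cytosolic genes, between 85.7 and 484 scaled TPM.

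The first question was how the synthetases differ between KAP1 knockdown and control cells. Most cytosolic genes were lower in the knockdown libraries, in both hemin states. Without hemin, 10 of the 20 cytosolic genes were at least 1.5-fold lower and 2 at least 1.5-fold higher, where 17.1% and 17.8% of all 10879 genes at the floor were. With hemin, 11 were at least 1.5-fold lower and 1 higher, where 12.8% and 15.1% of all 10904 genes were. Past 2-fold, 5 cytosolic genes were lower without hemin (6.43% of all genes) and 4 with hemin (4.11% of all genes). The cytosolic median log2 ratio was -0.59 without hemin and -0.63 with hemin, beside 0.03 and 0.01 over all genes.

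Mitochondrial genes did not share this pattern. Their median log2 ratio was 0.52 without hemin and 0.28 with hemin, though the first was -0.05 in the deposited values before depth scaling. None of the 15 was 1.5-fold lower in either state, where 17.1% and 12.8% of all genes were without and with hemin. At least 1.5-fold higher were 5 of the 15 without hemin and 3 with hemin, where 17.8% and 15.1% of all genes were. The count with hemin is thus near the share of all genes. The difference of the medians, cytosolic minus mitochondrial, was -1.11 without hemin and -0.91 with hemin. A scaling factor of a library cancels in it, apart from the pseudocount and the floor, and it was between -1.16 and -1.11 without hemin and between -0.94 and -0.91 with hemin under the 8 other settings. Genes are not replicates, so this difference carries no p-value.

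A model with knockdown and hemin as additive terms was fitted with limma over 11162 genes. It sets 2 knockdown libraries against 2 control libraries, and its calls at a Benjamini-Hochberg adjusted p under 0.05 rest on a spread pooled over genes. That spread mixes variation between cultures with departures from additivity, which 1 library per group cannot separate. The pooled value took all the weight (prior degrees of freedom Inf), so a gene's own residual had none. Each SE below is thus set by the expression level and is not that gene's own replicate error. With the knockdown, 10 cytosolic genes fell, 1 rose and 9 did not pass, where 10.2% of all genes fell and 12.1% rose. Of the 15 mitochondrial genes 3 rose, 0 fell by limma and 12 did not pass, with 4 at an unadjusted p under 0.05. An ordinary model without the pooling called 0 of the 35 and 0 of all 11162 genes in either contrast. Its 0 in a group, here and below, therefore says nothing about that group. For the knockdown it had 4 of 20 cytosolic genes and 1 of 15 mitochondrial genes at an unadjusted p under 0.05. Over all genes that held for 1129 of 11162. The calls hold only with the pooled spread. With the spread pooled over all genes without the trend on expression, 9 cytosolic genes fell, 1 rose and 1 mitochondrial gene rose.

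**Figure D2:**
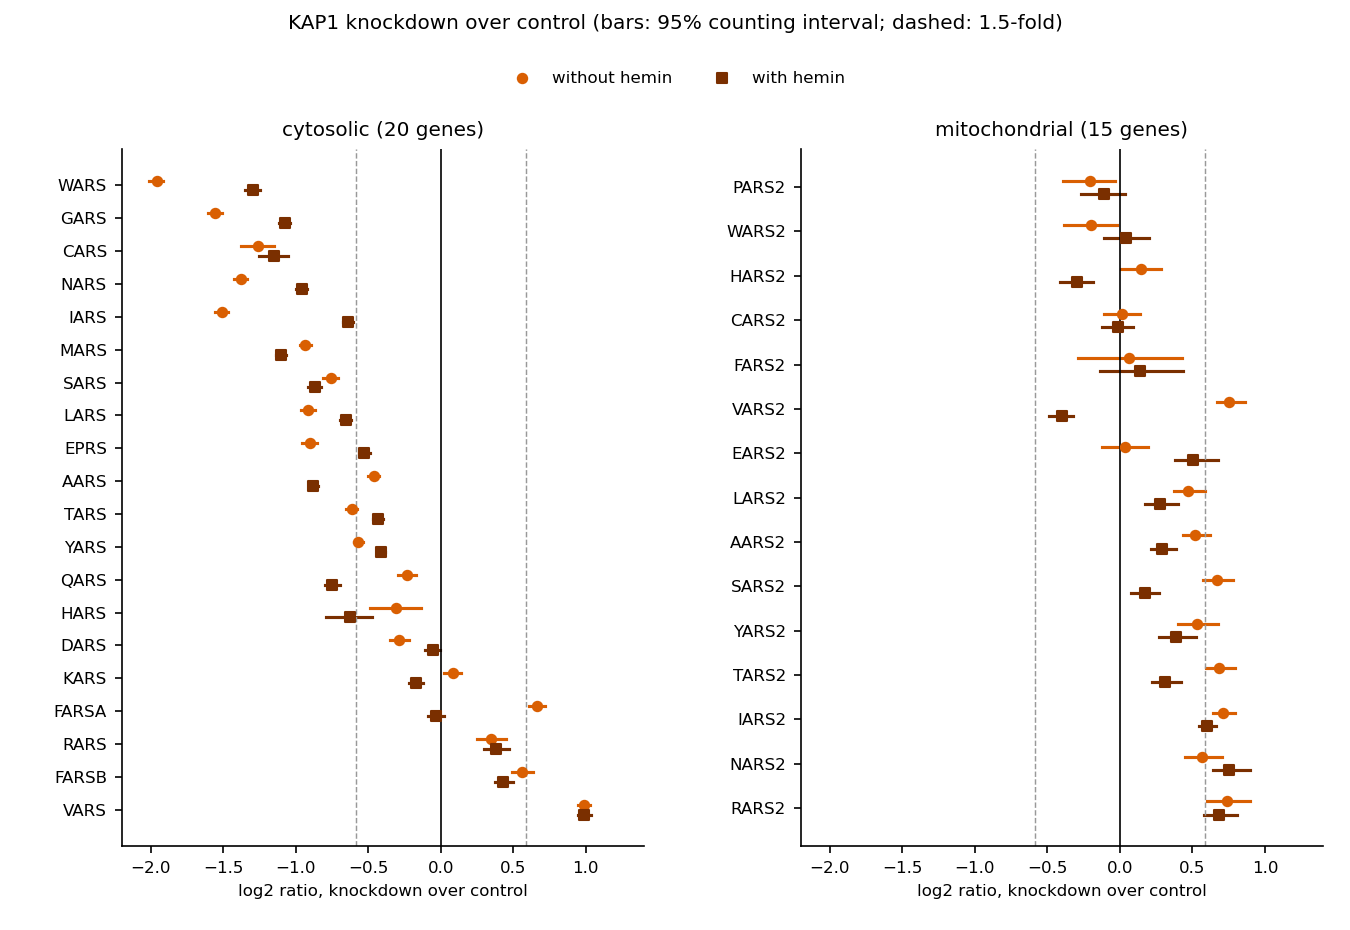
Log2 ratio of KAP1 knockdown over control for each synthetase, without hemin (circles) and with hemin (squares), with cytosolic genes on the left and mitochondrial genes on the right. Bars are 95% counting intervals, which leave out the spread between cultures, and dashed lines mark 1.5-fold; 8 cytosolic genes lie left of the lower line in both states, VARS lies right of the upper line in both, and so do IARS2 and RARS2.

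In both hemin states, 8 cytosolic genes were at least 1.5-fold lower in the knockdown: CARS, GARS, IARS, LARS, MARS, NARS, SARS and WARS. Over all genes 6.77% were lower in both states and 9% higher. WARS, the tryptophan enzyme and a known interferon-induced gene, had the lowest ratios. It measured 124 scaled TPM in KD and 484 in WT cells without hemin, and 85.7 in KD and 211 in WT cells with hemin. Both knockdown libraries were below both control libraries. The log2 ratios were -1.96 (95% counting interval -2.01 to -1.91) and -1.29 (-1.35 to -1.25), and WARS fell by 1.62 in the additive fit (SE 0.22, limma adjusted p = 4.3e-11). The 4 WARS transcripts in the table gave nearly the same ratios, between -2.01 and -1.96 without hemin. They held nearly equal read numbers (3878, 3913, 3583 and 3624 in KD cells without hemin), so their likeness is no separate check.

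GARS, the glycine enzyme of both compartments, measured 142 scaled TPM in KD and 416 in WT cells without hemin, and 150.2 in KD and 317 in WT cells with hemin. Its log2 ratios were -1.55 (95% counting interval -1.60 to -1.51) and -1.08 (-1.12 to -1.04), and it fell by 1.31 in the additive fit (SE 0.22, limma adjusted p = 1.4e-07). CARS, the cysteine enzyme, measured 55.6 scaled TPM in KD and 134 in WT cells without hemin, and 46.5 in KD and 104 in WT cells with hemin. For both genes the knockdown libraries were lower by more than 2-fold in either state. Both carry the ATF4 core shown above, while WARS, SARS and EPRS had windows without a match. Whether the core goes with the ratios was not tested. CARS fell by 1.20 in the additive fit (SE 0.23, limma adjusted p = 5.5e-06).

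NARS, the asparagine enzyme, measured 152 scaled TPM in KD and 397 in WT cells without hemin, and 169 in KD and 329 in WT cells with hemin, and its log2 ratios were -1.38 and -0.96. IARS, the isoleucine enzyme, measured 96.3 scaled TPM in KD and 274 in WT cells without hemin, and 122 in KD and 191 in WT cells with hemin. Its ratio was -1.50 without hemin and -0.64 with hemin, the widest gap between the states among these 8 genes. MARS, the methionine enzyme, measured 222.5 scaled TPM in KD and 425 in WT cells without hemin, and 163 in KD and 349 in WT cells with hemin. All 3 carry the core in their promoter window, as do AARS and TARS, which did not pass 1.5-fold in both states. NARS, IARS and MARS all fell in the additive fit, by 1.17 for NARS, 1.07 for IARS and 1.02 for MARS on the log2 scale (limma adjusted p = 3.7e-06, 4e-05 and 7.3e-05).

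SARS, the serine enzyme, measured 182 scaled TPM in KD and 308 in WT cells without hemin, and 149.8 in KD and 274 in WT cells with hemin. LARS, the leucine enzyme and a known leucine sensor for mTORC1, measured 84.5 scaled TPM in KD and 159.5 in WT cells without hemin, and 93.0 in KD and 147 in WT cells with hemin. SARS had the widest difference between transcripts of any member: the non-coding transcript NR_034072 gave -1.28 in cells without hemin and -1.33 in cells with it, while the coding transcript used here gave -0.76 and -0.87. Both genes fell in the additive fit, SARS by 0.81 and LARS by 0.78 (limma adjusted p = 0.0024 and 0.0046). Besides these 8, AARS and EPRS fell in that fit without passing 1.5-fold in both states. AARS, the alanine enzyme, had log2 ratios of -0.46 without hemin and -0.88 with hemin (limma adjusted p = 0.015); its call was lost without the trend on expression (limma adjusted p = 0.063) and with plain library totals (0.06). EPRS, a fused enzyme for glutamate and proline, had -0.90 and -0.53 (limma adjusted p = 0.0089).

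TARS, the threonine enzyme, had log2 ratios of -0.61 and -0.43, and YARS -0.57 and -0.41, without and with hemin. Neither passed in the additive fit, with limma adjusted p-values of 0.07 for TARS and 0.09 for YARS. HARS, the histidine enzyme, had -0.31 and -0.63, QARS, the glutamine enzyme, -0.23 and -0.75, and DARS, the aspartate enzyme, -0.28 and -0.06. KARS, the lysine enzyme of both compartments, had 0.08 and -0.17, with a limma adjusted p of 0.92. Without hemin, all 6 of these genes had ratios nearer 0 than any of the 8 that were 1.5-fold lower in both states.

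Only 1 cytosolic gene rose in the additive fit. VARS, the valine enzyme, measured 206 scaled TPM in KD and 104 in WT cells without hemin, and 135 in KD and 67.8 in WT cells with hemin. Its log2 ratio was 0.98 (95% counting interval 0.94 to 1.03) without hemin and 0.99 (0.95 to 1.04) with hemin, and the fit gave 0.99 (SE 0.23, limma adjusted p = 0.00022). The ratio was nearly the same in both states, although the levels differed with hemin. VARS is on the list of known ATF4 targets, so on that list it stands opposite to the other 12 members, which all had ratios below 0 in both states.

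FARSA and FARSB encode the alpha and beta subunits of a single enzyme for phenylalanine. FARSA measured 251 scaled TPM in KD and 159 in WT cells without hemin, and 139 in KD and 142 in WT cells with hemin. Its log2 ratio of 0.66 without hemin was thus not seen with hemin, where it was -0.03 (95% counting interval -0.09 to 0.02). FARSB measured 118 scaled TPM in KD and 79.9 in WT cells without hemin, and 109 in KD and 80.9 in WT cells with hemin, with log2 ratios of 0.56 and 0.43. The level of FARSA over that of FARSB was 2.13 and 1.27 in the knockdown libraries without and with hemin, against 1.98 and 1.76 in the controls. RARS had log2 ratios of 0.34 and 0.38. None of the 3 passed in the additive fit, where FARSB, which passed with plain library totals, had a limma adjusted p of 0.1, RARS 0.28 and FARSA 0.34.

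The known ATF4 targets among the cytosolic synthetases carried the lower values. The list held AARS, CARS, EPRS, GARS, IARS, LARS, MARS, NARS, SARS, TARS, VARS, WARS and YARS, and its median log2 ratio was -0.91 without hemin and -0.87 with hemin. The other 7 cytosolic genes had medians of 0.08 and -0.06. In the additive fit 10 of the 13 fell, 1 rose and 2 did not pass, where 10.2% of all genes fell and 12.1% rose. Of the other 7, 0 passed by limma, with 3 at an unadjusted p under 0.05. By the ordinary model 0 of the 7 passed, with 1 at an unadjusted p under 0.05. With 7 genes, 0 calls by limma is not far from the share of all genes. A further list, of ATF4 targets that are not synthetases together with ATF4 itself, lay lower still. Of its 22 genes tested 20 fell, 0 rose and 2 did not pass by limma. Their medians were -1.62 without hemin and -1.35 with hemin. All 22 had ratios below 0 in both states, but the lists were chosen with earlier results of these data known. ATF4 itself stood at 542 and 411 scaled TPM in the knockdown libraries without and with hemin, against 1018 and 1013 in the controls. ASNS, asparagine synthetase, stood at 5.43 and 10.1 scaled TPM in the knockdown libraries, against 57.2 and 37.0 in the controls. Protein levels and ATF4 binding were not measured, and the difference between the lists has no test here.

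**Figure D3:**
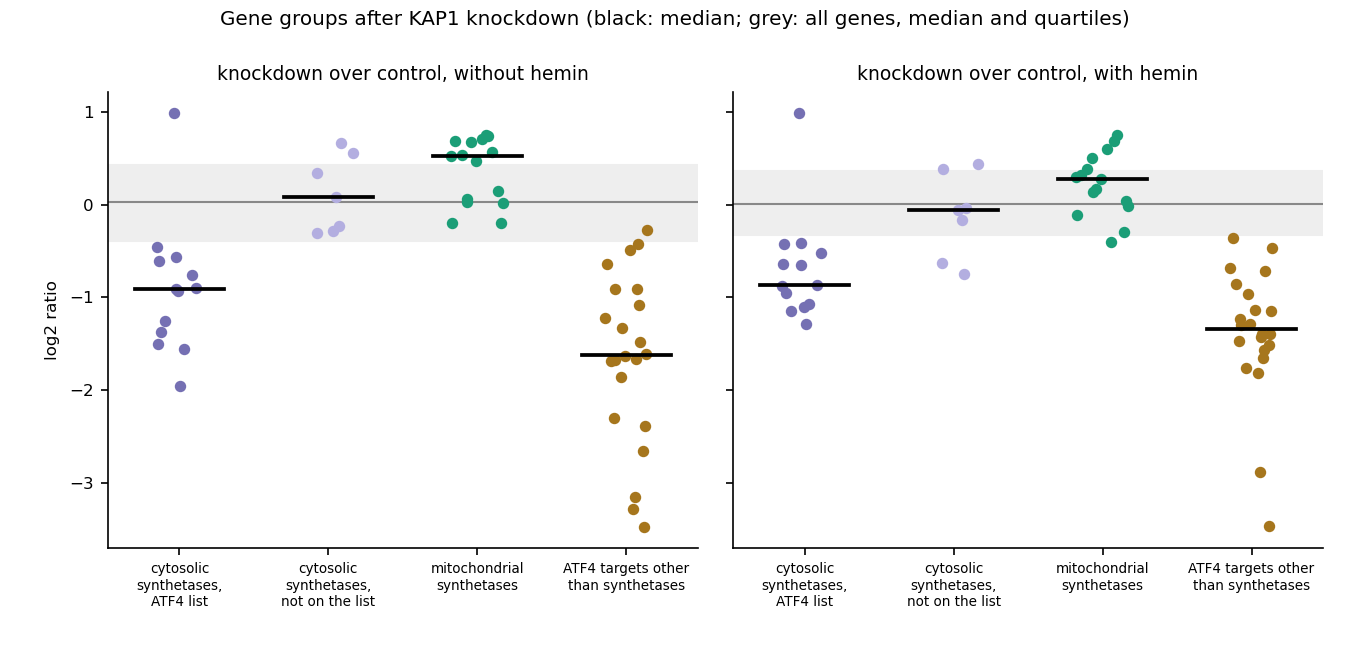
Log2 ratio of KAP1 knockdown over control without hemin (left) and with hemin (right), 1 point per gene, for 4 gene groups. Black lines are group medians, and the grey band is the middle of all genes from the lower to the upper quartile, with their median as a line. The 13 ATF4-listed synthetases have medians of -0.91 and -0.87, with VARS as the single point above 0. The 22 genes of the other ATF4 list, which includes ATF4 itself, have medians of -1.62 and -1.35.

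Members of the multisynthetase complex were found on both sides of the call. Of the 8 synthetases in the complex 4 fell in the additive fit (EPRS, IARS, LARS and MARS) and 4 did not pass (DARS, KARS, QARS and RARS). The 4 that fell are on the list of known ATF4 targets, and the 4 that did not pass are not. Of the 12 outside it 6 fell, 1 rose and 5 did not pass, where 10.2% of all genes fell and 12.1% rose. Median log2 ratios without hemin were -0.59 in the complex and -0.59 outside it, and with hemin -0.58 and -0.75. Without hemin the scaffold genes had log2 ratios of -0.08 for AIMP1, -0.06 for AIMP2 and -0.10 for EEF1E1. With hemin they had -0.08, 0.33 and -0.39. Of the 3, 0 passed by limma, with 0 at an unadjusted p under 0.05. By the ordinary model 0 passed, with 1 at an unadjusted p under 0.05. With 3 genes, 0 calls by limma is near the share of all genes.

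Other genes of cytosolic tRNA charging were read from a fixed list of 7, of which 6 were present. XPOT, the export receptor that carries tRNA out of the nucleus and a known ATF4 target, measured 107 scaled TPM in KD and 207.5 in WT cells without hemin, and 121 in KD and 187 in WT cells with hemin. It fell in the additive fit (limma adjusted p = 0.0041), and DTD1, which removes D-amino acids from tRNA, rose (limma adjusted p = 0.011), with log2 ratios of 0.90 and 0.57. The other 4, AARSD1, SEPSECS, PSTK and TARSL2, did not pass, where 10.2% of all genes fell and 12.1% rose.

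Among the mitochondrial genes, IARS2, RARS2 and NARS2 rose in the additive fit. Without the trend on expression RARS2 alone passed, at a limma adjusted p of 0.044, with 0.064 for IARS2 and 0.064 for NARS2; NARS2 was also lost with no floor (0.077) and with summed transcripts (0.054). IARS2 measured 73.5 scaled TPM in KD and 44.7 in WT cells without hemin, and 83.7 in KD and 55.0 in WT cells with hemin. Both knockdown libraries were above both control libraries, with log2 ratios of 0.71 (95% counting interval 0.64 to 0.79) and 0.60 (0.55 to 0.67), and a limma adjusted p of 0.026. RARS2, for mitochondrial arginine, measured 37.9 scaled TPM in KD and 22.5 in WT cells without hemin, and 48.1 in KD and 29.7 in WT cells with hemin (limma adjusted p = 0.017). NARS2, for mitochondrial asparagine, measured 36.6 scaled TPM in KD and 24.6 in WT cells without hemin, and 28.2 in KD and 16.6 in WT cells with hemin (limma adjusted p = 0.034). These genes thus stood opposite to IARS and NARS, which charge the same amino acids in the cytosol, while RARS lay above its control like RARS2.

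The other 12 mitochondrial genes did not pass. SARS2, for serine, had log2 ratios of 0.67 without hemin and 0.17 with hemin, TARS2, for threonine, 0.68 and 0.31, and YARS2, for tyrosine, 0.53 and 0.39. AARS2, for alanine, had 0.52 and 0.29, LARS2, for leucine, 0.47 and 0.28, and EARS2, for glutamate, 0.03 and 0.50. CARS2, for cysteine, had 0.01 and -0.01, the pair nearest 0 among all members. FARS2 had 0.06 and 0.14 with counting intervals that held 0, PARS2, for proline, -0.20 and -0.11, and WARS2, for tryptophan, -0.20 and 0.04. VARS2, for valine, changed side: it measured 48.4 scaled TPM in KD and 28.5 in WT cells without hemin, and 30.5 in KD and 40.4 in WT cells with hemin. Its log2 ratio was 0.75 (95% counting interval 0.67 to 0.86) without hemin and -0.40 (-0.49 to -0.32) with hemin. The 6 partners in mitochondrial tRNA charging were QRSL1, PET112, GATC, MTFMT, TRMU and MTO1. Of these, 0 passed by limma and 0 by the ordinary model, each with 1 at an unadjusted p under 0.05. With 6 genes, 0 calls by limma is not far from the share of all genes, of which 10.2% fell and 12.1% rose. QRSL1, PET112 and GATC encode the amidotransferase that makes glutaminyl-tRNA in mitochondria, which lack a glutamine enzyme of their own.

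Each cytosolic gene was next set beside the mitochondrial gene for the same amino acid, which gave 16 pairs (EPRS was paired with EARS2 and PARS2, and FARS2 with FARSA and FARSB). The cytosolic ratio was the lower one in 13 of 16 pairs without hemin, the exceptions being FARSA, FARSB and VARS, and in 14 of 16 with hemin, the exceptions being FARSB and VARS. The median difference over the pairs, cytosolic minus mitochondrial, was -1.04 without hemin and -0.87 with hemin. IARS and IARS2 were furthest apart without hemin, by -2.22, and NARS and NARS2 with hemin, by -1.71. The level of the cytosolic transcript over the mitochondrial one had a median of 4.21 and 5.80 in the knockdown libraries without and with hemin, against 12.2 and 12.5 in the controls. For isoleucine this level ratio was 1.31 and 1.46 in the knockdown libraries, against 6.13 and 3.47 in the controls, so the cytosolic excess was much smaller after knockdown.

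**Figure D4:**
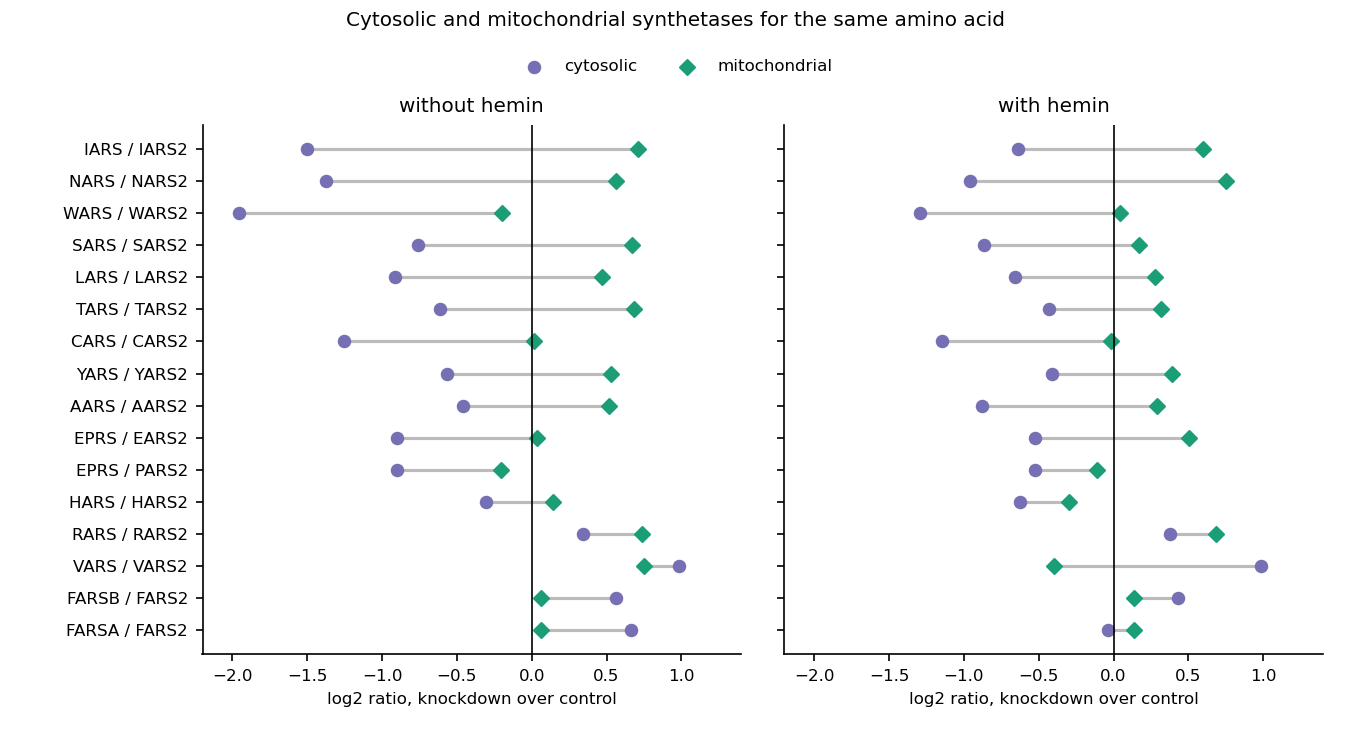
Log2 ratio of KAP1 knockdown over control for the cytosolic (circles) and mitochondrial (diamonds) gene of each pair, without hemin on the left and with hemin on the right, ordered by the difference without hemin. The circle lies left of the diamond in 13 of 16 pairs without hemin and 14 of 16 with hemin, and the IARS and IARS2 pair has the longest line on the left panel, -2.22.

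HARS and HARS2 are a special pair, since they lie head to head on chromosome 5 and are transcribed away from each other out of a shared stretch. The 84 bases between their annotated starts (RefSeq, GRCh38.p14, chr5:140691371-140691454, plus strand, read towards HARS2) are 59.5% G or C.
HARS to HARS2: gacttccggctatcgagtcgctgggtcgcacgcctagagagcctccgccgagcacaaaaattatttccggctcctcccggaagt
HARS measured 72.9 scaled TPM in KD and 90.2 in WT cells without hemin, and 54.2 in KD and 83.9 in WT cells with hemin. HARS2 measured 26.3 scaled TPM in KD and 23.7 in WT cells without hemin, and 23.5 in KD and 28.9 in WT cells with hemin. HARS was lower than HARS2 in its knockdown ratio in both states, by -0.45 without hemin and -0.33 with hemin. The genes are close relatives, so the authors' counting could have split some reads between them, which was not tested.

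Hemin was compared next, in knockdown and in control cells. These comparisons use the same 4 libraries as those above, so the values are given side by side and are not independent of them. Every synthetase past 1.5-fold with hemin was lower with it. In knockdown cells 2 of 20 cytosolic genes were at least 1.5-fold lower with hemin, FARSA and VARS, where 10.7% of all genes were. So were 3 of 15 mitochondrial genes, LARS2, TARS2 and VARS2. In control cells 2 of 20 cytosolic genes were, VARS and WARS, and 0 of 15 mitochondrial genes, where 8.21% of all genes were. The cytosolic counts are thus near the share of all genes in both. No synthetase was 1.5-fold higher with hemin in either, where 12.1% of all genes were in the knockdown and 9.26% in the control. The cytosolic median log2 ratio was -0.22 in the knockdown and -0.16 in the control, and the mitochondrial one -0.16 and -0.11, beside 0.00 and -0.01 over all genes; in the deposited values before depth scaling, the medians in the knockdown were above 0, at 0.73 and 0.77, and the mitochondrial median in the control was 0.05.

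WARS was the single synthetase called for hemin in the additive fit, where 2.93% of all genes fell and 3.02% rose. Its log2 ratio of hemin over no hemin was -0.53 in the knockdown and -1.20 in the control, and it fell by 0.87 in the fit (SE 0.22, limma adjusted p = 0.0046). That call was lost without the trend on expression, at a limma adjusted p of 0.062, and the adjusted p lay between 0.0024 and 0.79 over the 10 alternatives. VARS was lower with hemin to the same extent in both, with log2 ratios of -0.61 in the knockdown and -0.61 in the control (limma adjusted p = 0.091). FARSA had -0.85 in the knockdown and -0.16 in the control. LARS2 had -0.71 in the knockdown and -0.52 in the control, with a limma adjusted p of 0.13. Among the mitochondrial genes 0 passed for hemin by limma, with 2 at an unadjusted p under 0.05. By the ordinary model 0 passed, with 1 of 15 at an unadjusted p under 0.05, where 806 of all 11162 genes were. Below 1.5-fold, several cytosolic genes stood on opposite sides of 0 in the 2 backgrounds. IARS had a log2 ratio of hemin over no hemin of 0.34 in the knockdown and -0.52 in the control, and AARS -0.35 and 0.07. QARS had -0.34 in the knockdown and 0.17 in the control, and NARS 0.15 and -0.27. EPRS had the second highest cytosolic ratio in the knockdown, 0.33, and -0.04 in the control. Among the mitochondrial genes RARS2 had 0.34 in the knockdown and 0.39 in the control, and IARS2 0.19 and 0.30, so both lay above 0 in either background. NARS2 had -0.37 in the knockdown and -0.55 in the control. SARS2 had -0.53 in the knockdown and -0.03 in the control. None of these 9 genes passed for hemin in the additive fit.

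As a check of the hemin labels, the fetal globin gene HBG2 measured, in scaled TPM, 32675 with hemin and 7216 without it in KD cells, and 28728 with hemin and 6982 without it in WT cells.

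**Figure D5:**
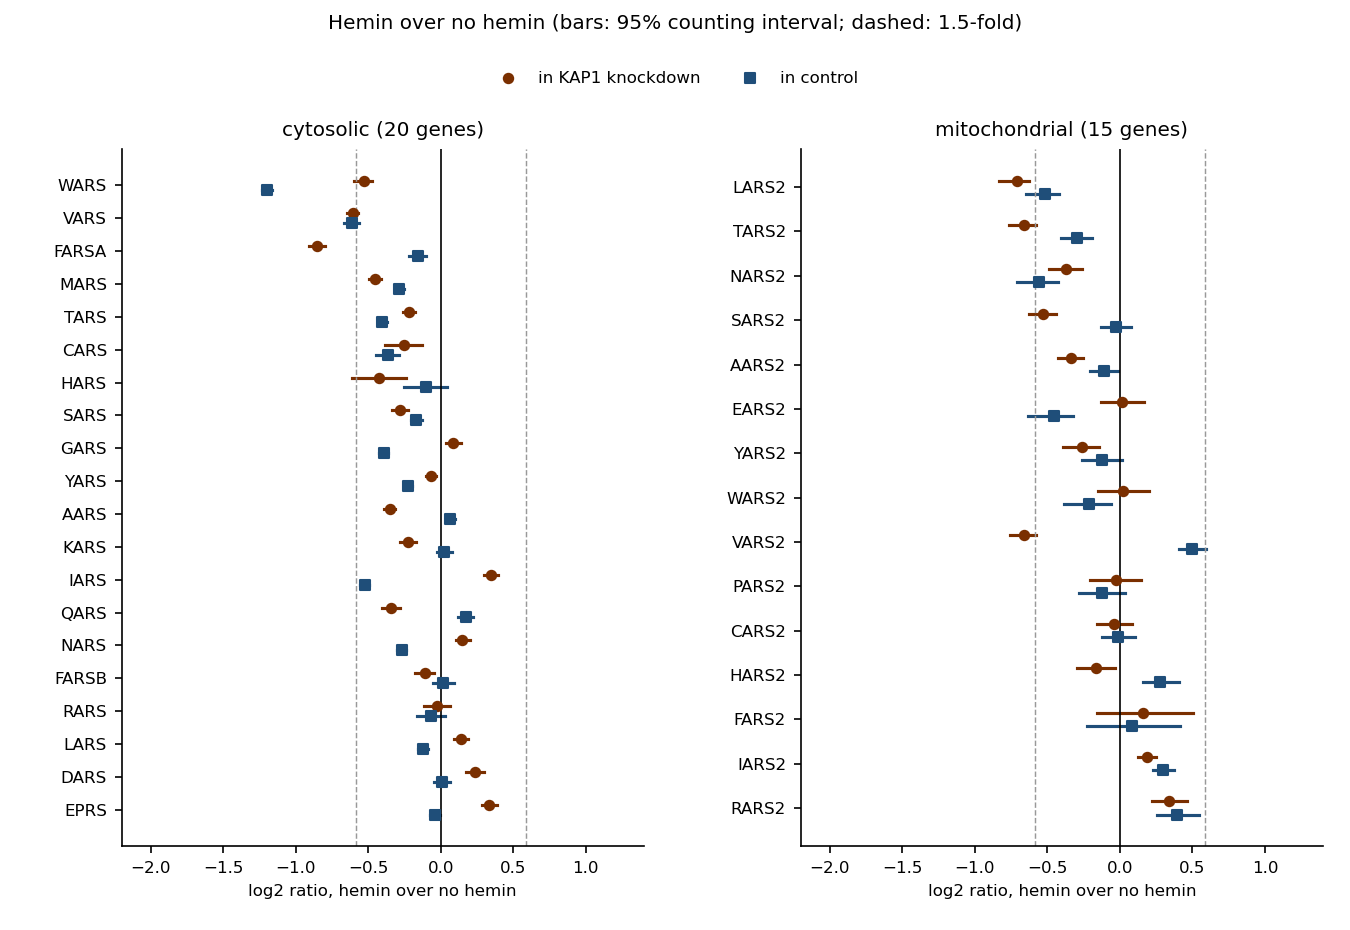
Log2 ratio of hemin over no hemin for each synthetase in KAP1 knockdown cells (circles) and control cells (squares), with 95% counting intervals as bars and dashed lines at 1.5-fold. WARS in the control, at -1.20, is the lowest value, and no gene lies right of the upper dashed line.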

How the data were processed

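The authors deposited RPKM values, 1 row per RefSeq transcript according to the file headers. The submitters' processing notes list Bowtie and hg19 and give no role for them. Within a row the values are whole reads times a step and a factor per library, so they still carry depth. Reads were recovered for 24533 of 24533 rows that do not hold whole numbers (tolerance 0.0002 reads plus 4e-09 of the value); reads that share a common factor come out divided by it, which widens their intervals. No value is 0, so transcripts silent in a library may be missing. Each gene took its transcript with the highest mean. Values were scaled by recovered totals times a trimmed mean of log ratios (trims 0.3 and 0.05) to a mean sum of 1000000, called scaled TPM; this replaced the RPKM scale. Ratios are on log2(scaled TPM + 0.5), which understates low genes; the floor was 5. Intervals are exact conditional binomial ones at 95% on reads without the pseudocount and cover counting error only. The additive fit (limma 3.58.1, R 4.3.3) has 1 residual degree of freedom, a trend on expression and no leave-one-out. It was tested on simulated data, where it missed most changes of 1.5-fold and the share of unchanged genes among its calls was above the threshold of 0.05. Alternatives were other scalings, floors, pseudocounts, transcripts and variance models. Every member is named; values in all 4 libraries are given for those 1.5-fold apart in the same direction in both knockdown or both hemin comparisons, those past 1.5-fold in 1 hemin state with the opposite sign in the other, and the highest and lowest of each compartment, and also for NARS2, FARSB, HARS and HARS2, which were chosen after their values were seen. Members, lists and tests were chosen with earlier results of these data known. Mouse ChIP-seq libraries of the series were not used here. One erythroid marker gene is not reported here.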

Additional observations from a re-analysis of the deposited data

Results flagged for a closer look

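VARS2 and IARS were picked out because their ratios pointed in opposite directions under the same contrast, with both counting intervals clear of 0 and at least 1.5-fold between them; with 1 library per group these differences were not tested. VARS2 had a log2 ratio of knockdown over control of 0.75 without hemin and -0.40 with hemin, and one of hemin over no hemin of -0.66 in the knockdown and 0.49 in the control. Its 3 transcripts in the table shared this pattern, with ratios between 0.69 and 0.75 without hemin and between -0.43 and -0.40 with hemin. They held nearly equal read numbers (1931, 1958 and 1981 in KD cells without hemin), so their likeness is no separate check. IARS had a log2 ratio of hemin over no hemin of 0.34 in the knockdown and -0.52 in the control, and was lower in the knockdown in both hemin states.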

How the results depend on the processing

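The cytosolic minus mitochondrial median of the knockdown ratios stayed between -1.16 and -1.11 without hemin and between -0.94 and -0.91 with hemin under the 8 alternatives run. For hemin in the knockdown it was -0.06 and became 0.11 with a floor of 20, where the mitochondrial median was -0.33. Plain library totals, which shifted the median of all genes by 0.11 without hemin, gave cytosolic knockdown medians of -0.48 without and -0.53 with hemin and 2 cytosolic genes that rose. Equal medians gave -0.32 for the cytosolic genes with hemin in the knockdown. The deposited values, which still carry depth and shifted the median of all genes by between -0.56 and 0.93, gave cytosolic knockdown medians of -1.17 and -0.42 without and with hemin, mitochondrial ones of -0.051 and 0.49, hemin medians of 0.73 and 0.77 in the knockdown and of -0.0033 and 0.046 in the control (cytosolic and mitochondrial), and 0 calls of any synthetase in the additive fit. Without the trend on expression, 1 mitochondrial gene rose with the knockdown and 0 cytosolic genes fell with hemin; the ordinary model called 0 genes in either contrast. SARS had -0.86 and -0.95 with its transcripts summed. NARS2 was not called with no floor or with summed transcripts, which left 2 mitochondrial genes. No paired analysis was possible by replicate number because each group holds 1 replicate; the additive fit compares knockdown and control within each hemin state instead, and leaving out a library would leave that fit no residual degrees of freedom. Depth limits FARS2 most, with 116 to 234 reads per library.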
